A study of Arabidopsis thaliana with 24 samples.

Results

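The mature leaves of the Arabidopsis thaliana double mutant dpe2/phs1 (dM) were compared with mature leaves of the wild type Col-0 (wM) across all genes. The members were the 6 libraries whose labels give mature leaves, 3 of dM and 3 of wM, of 24 libraries in all. Both groups were 5 weeks old, were harvested in the light period and were taken as mature leaves with petioles in the Reduced Granule Number period (RGN), in which dpe2/phs1 is retarded in growth and its chloroplasts carry few or no starch granules. The other libraries came from the same genotypes as young leaves of the same period (dY and wY) and as shoots before and after it. dpe2/phs1 lacks the cytosolic disproportionating enzyme DPE2 and the plastidial alpha-glucan phosphorylase PHS1. Col-0 carries both and is the accession the mutant was compared with at the same age. The study's methods call the 3 libraries of a group biological replicates, and whether each came from a single plant or from a pool is not given for the sequencing in the sources used here.

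In leaves, starch is made in the chloroplast by day and broken down at night, mostly to maltose. Maltose leaves the chloroplast through MEX1, and DPE2 transfers one of its glucosyl units to cytosolic glucans, while PHS1 releases glucose 1-phosphate from glucans inside the plastid. A leaf that ages takes apart its chloroplasts, and the nitrogen, phosphate and other nutrients are moved out to growing organs. NAC and WRKY transcription factors, proteases and the autophagy machinery take part in that programme. The genes are described below from starch metabolism, through the leaf senescence programme and photosynthesis, to pigments, nutrients, hormones and growth.

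Expression was given as FPKM, a level in fragments that is scaled to gene length and to library size. The libraries held 17504383 to 19447298 reads in dM and 19125665 to 27859805 reads in wM, as recovered from the steps of the low FPKM values, and a 1 kb gene with 3 reads would be listed at 0.154 to 0.171 FPKM in dM and at 0.108 to 0.157 FPKM in wM. A gene was called when limma gave a Benjamini-Hochberg adjusted p under 0.05 on log2(FPKM + 1), a scale on which the fold changes of genes with low FPKM are understated. All log2 fold changes are dM over wM and carry a standard error (SE) from limma, with n = 3 libraries in each group. Of the 19575 genes tested, 69.1% were called in mature leaves, 36.6% as higher and 32.5% as lower in dM, and the median log2 fold change of all genes was 0.05. With a change of more than 2-fold as well, 14.4% were higher and 13.9% lower. Each list of genes below is to be read against these shares. In these bulk samples fewer cells of a type and less RNA per cell cannot be told apart. Changes of more than 16-fold lay mostly upward, with 107 genes higher and 17 lower in dM.

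Both mutated genes were lower in dM, and neither transcript was absent. DPE2 (AT2G40840, chr2:17044932-17051062) had 35.8, 38.4 and 37.8 FPKM in dM, against 95.3, 97.6 and 87.6 FPKM in wM. PHS1 (AT3G29320, chr3:11252807-11257814) had 12.3, 9.9 and 9.7 FPKM in dM, against 128, 142 and 109 FPKM in wM. The dM and wM libraries did not overlap for either gene, as the genotype labels of all 6 libraries give them. The log2 fold change was -1.30 (SE 0.17, limma adjusted p = 7.1e-07) for DPE2 and -3.45 (SE 0.20, limma adjusted p = 1.0e-12) for PHS1. After removal of the gene length trend described below, the values were -0.69 for DPE2 and -2.93 for PHS1.

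The change in dM depended on gene length. The 10% of genes with the shortest transcripts had a median log2 fold change of 0.31, and 43.3% of them were called higher and 18.1% lower. The 10% with the longest transcripts had a median of -0.69, and 9.71% were called higher and 61.5% lower. In every dM library the long genes lay below the short ones relative to the mean of all libraries, by -0.24, -0.53 and -0.67 on the log2 scale, whereas in the wM libraries they lay above them, by 0.57, 0.70 and 0.38. The pattern was not confined to dM. In Col-0 shoots taken after the period the long genes lay below the short ones by -0.91, -1.24 and -2.03. In dpe2/phs1 shoots taken after it the values were -0.52, -0.11 and 0.1. In shoots taken before it the long genes lay above the short ones in both genotypes. All these shoot libraries enter the mean of all libraries. The part of this trend in the results below was not tested. Values after removal of the trend in each library (length-adjusted values) are given beside some of the genes and lists that it moves.

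**Figure D1:**
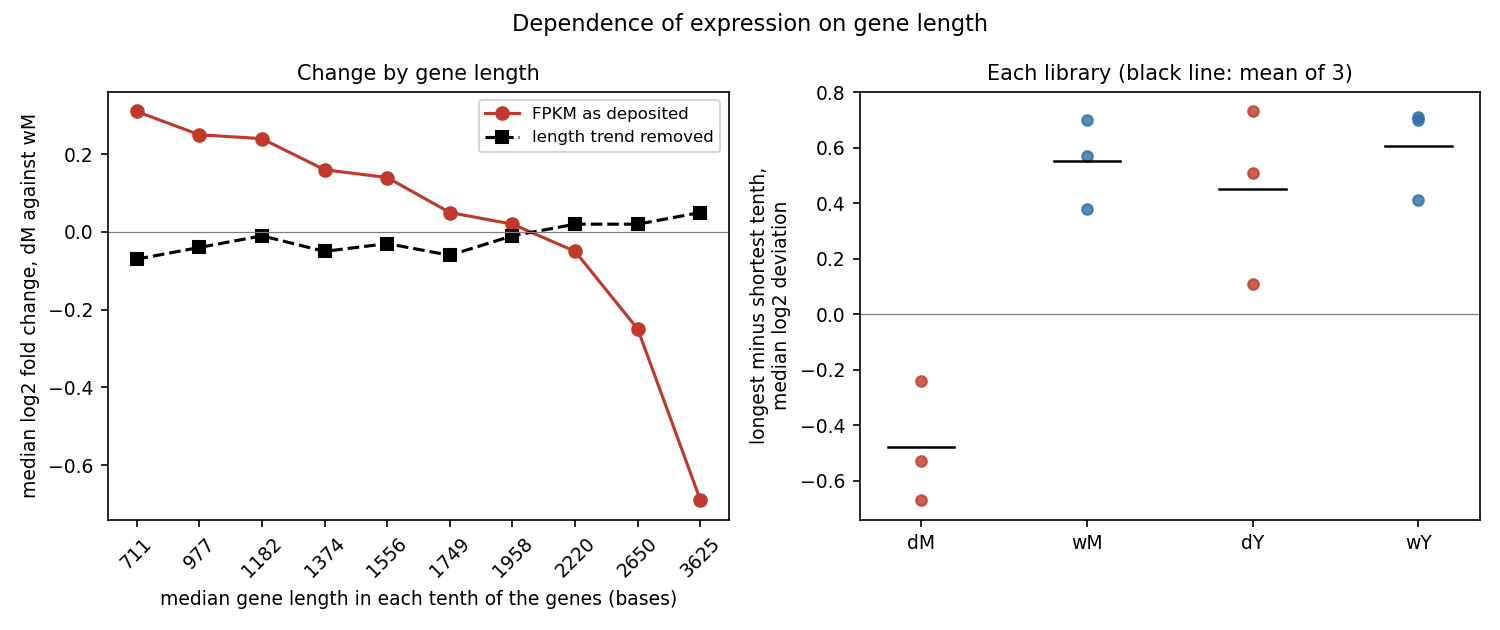
Left, median log2 fold change of dM over wM in each 10% of the genes by transcript length (bases), as deposited (red circles) and after removal of the length trend (black squares). Right, the median log2 deviation of the longest minus the shortest 10% of the genes in each library of dM, wM, dY and wY (points) with the mean of 3 libraries (black lines). The change declined from 0.31 in the shortest to -0.69 in the longest genes. The 3 dM libraries lay between -0.24 and -0.67, below all others drawn. Shoot libraries are not drawn, and those of Col-0 after the period lay lower, between -0.91 and -2.03.

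The largest rises in dM were of a nitrilase, an inhibitor of proteases, enzymes of the anthocyanin pathway, stress-related proteins and a plastid sugar phosphate carrier. NIT2, a nitrilase, had 519, 580 and 606 FPKM in dM, against 0.725, 0.170 and 0.291 FPKM in wM, a ratio of means of 1438. Its rise on the log2 scale was 8.69 (SE 0.14, limma adjusted p = 6.0e-22). KTI1, a Kunitz trypsin inhibitor, had 343, 373 and 376 FPKM in dM, against 2.00, 0.75 and 1.39 FPKM in wM, a log2 fold change of 7.29. The other 10 of the 12 largest rises among genes with a symbol were TT19, OSM34 (an osmotin-like protein), ATDI21 (a drought-induced gene), 5MAT, DFR, UF3GT, BGLU23 (the beta-glucosidase PYK10), GPT2, PDF1.1 (a defensin) and PYD4 (a putative aminotransferase of pyrimidine breakdown). Their log2 fold changes lay between 5.97 for PYD4 and 6.77 for TT19. PDF1.1 had 62.5, 64.6 and 66.8 FPKM in dM, and no read was recovered in wM, so that it was at least 651-fold higher in dM, taking 3 reads over the 3 wM libraries as the floor. SAG12, described below, was the other gene of this size with no read in wM.

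The 250 bases upstream of the annotated start of NIT2 are shown because no other gene with a symbol rose further. They are taken from the RefSeq TAIR10.1 genome at chr3:15982949-15983198, plus strand, and hold none of the 10 promoter motifs searched, which says only that these letters are not in this window.
NIT2: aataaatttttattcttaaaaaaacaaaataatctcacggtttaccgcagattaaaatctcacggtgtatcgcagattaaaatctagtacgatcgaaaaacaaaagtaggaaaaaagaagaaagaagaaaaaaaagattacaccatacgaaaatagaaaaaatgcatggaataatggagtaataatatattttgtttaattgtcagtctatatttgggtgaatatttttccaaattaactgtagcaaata
The motifs searched on both strands were the G-box CACGTG, the ABRE ACGTGGC or ACGTGTC, which can overlap the G-box, the W-box TTGACC or TTGACT, the DRE ACCGAC or GCCGAC, the GCC-box GCCGCC, the evening element AAAATATCT, the I-box GATAAG, the telo box AAACCCTA, the site II element TGGGCC or TGGGCT and the E2F site TTTCCCGC or TTTGGCGC.

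The largest falls included proteins of the chloroplast and long coiled-coil and motor proteins. CIP1, which binds the light-signalling regulator COP1, had 0.622, 0.329 and 0.433 FPKM in dM, against 51.4, 68.6 and 27.5 FPKM in wM. It fell by 5.01 on the log2 scale (SE 0.36, limma adjusted p = 5.0e-11), and the length-adjusted value was -3.89. The chloroplast carbonic anhydrase CA1 had 155, 166 and 156 FPKM in dM, against 2428, 2446 and 2551 FPKM in wM, a log2 fold change of -3.95 (SE 0.11). ENH1, a rubredoxin family protein, had 11.1, 10.8 and 11.9 FPKM in dM, against 218, 211 and 235 FPKM in wM, a log2 fold change of -4.18. The remaining 9 of the 12 largest falls among genes with a symbol were MFP1, CRK4 (a cysteine-rich receptor-like kinase), MSRB6 (a methionine sulfoxide reductase), the MYB-like RL4, BAM6, FPP4 (a filament-like plant protein), the kinesins KIN4B and KIN7F and the iron-sulfur protein NEET, between -4.42 for MFP1 and -3.76 for NEET.

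**Figure D2:**
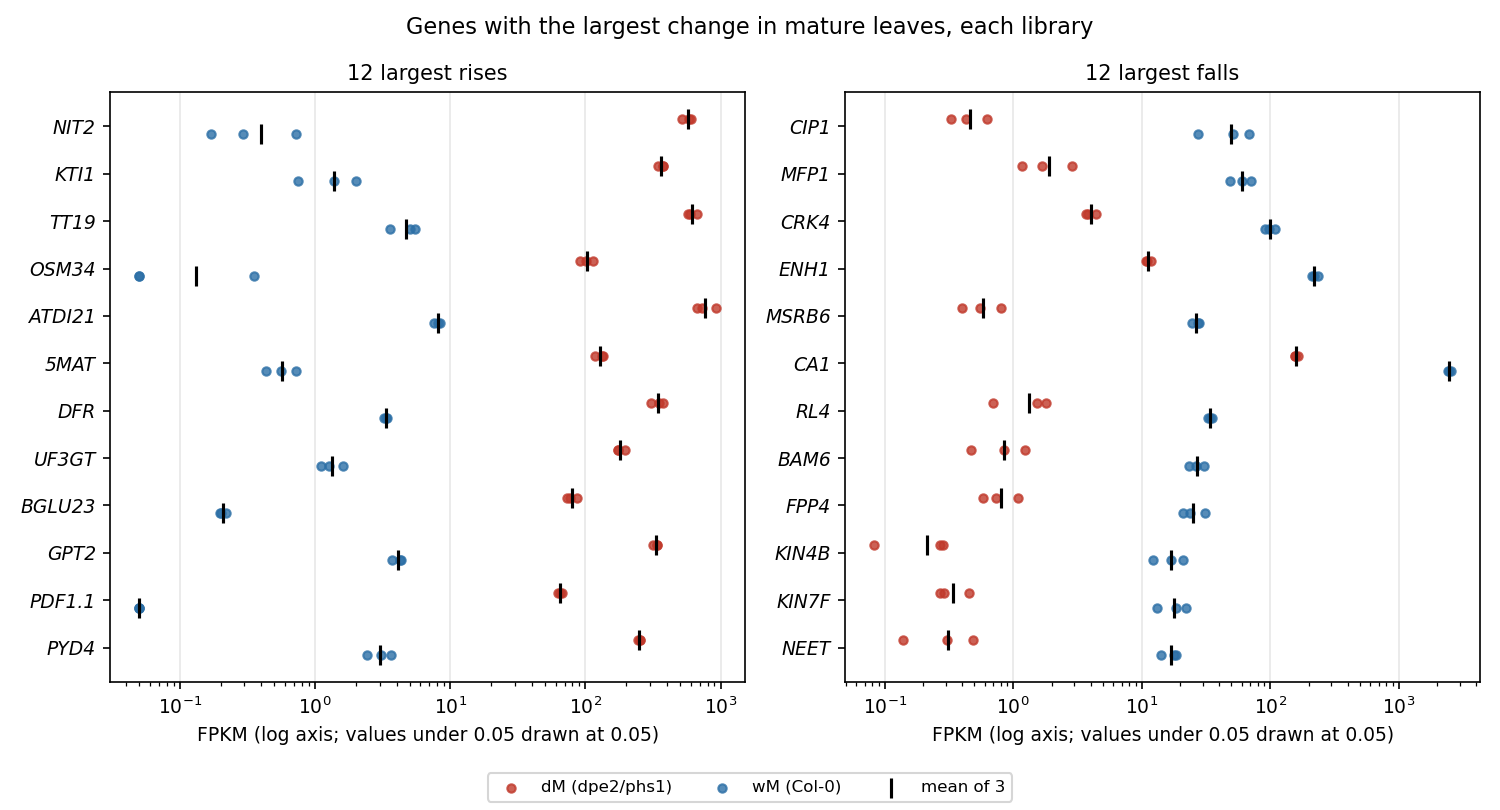
FPKM on a log axis of the 12 largest rises (left) and the 12 largest falls (right) among genes with a symbol, with 1 point for each dM library (red, upper point of a pair) and each wM library (blue) and a black line at the mean of 3. Values under 0.05 FPKM are drawn at 0.05. The dM and wM points are separate for all 24 genes, which the choice of genes required, and NIT2 lies at 519 to 606 FPKM in dM, against 0.170 to 0.725 FPKM in wM.

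In absolute level the transcripts with the largest gain were MT2A and MT2B, metallothioneins that bind metals, and PR1, a pathogenesis-related protein. PR1 had 2769, 3254 and 3274 FPKM in dM, against 209, 200 and 239 FPKM in wM, and rose by 3.84 on the log2 scale (SE 0.12). MT2A had 4221, 5553 and 7891 FPKM in dM, against 1423, 1245 and 1326 FPKM in wM, with the widest spread in dM among these genes. DRMH1, a homolog of a dormancy-associated gene, had 2221, 2430 and 2347 FPKM in dM, against 152, 136 and 158 FPKM in wM. The RNA-binding protein RBG7, the antenna gene LHCB1.1 (AT1G29910), the glycine-rich protein GRP3 and the polyamine enzyme SAMDC1 made up the 8 largest gains, with ratios of means between 2.14 for GRP3 and 3.85 for SAMDC1. The largest losses were of the Rubisco small subunit genes RBCS1A, RBCS2B and RBCS1B, the wall protein ECS1, LHCB1.3, CA1, Rubisco activase RCA and ferredoxin FD2. The LHCB1 genes and the Rubisco small subunit genes are near-identical copies, between which reads may be divided wrongly, and their sums are given below. FD2 had 221, 237 and 236 FPKM in dM, against 2005, 1918 and 2005 FPKM in wM.

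All 6 genes of granule initiation that could be matched, of 9 listed, fell in dM, 4 of them by more than 2-fold, with a median log2 fold change of -2.19 and -2.02 length-adjusted. SS4, the starch synthase that primes granules, had 9.39, 5.27 and 5.73 FPKM in dM, against 74.7, 87.4 and 62.3 FPKM in wM (log2 fold change -3.31, SE 0.28). Length-adjusted, SS4 was at -2.7. MFP1, a thylakoid-associated protein of granule initiation, had 2.85, 1.18 and 1.67 FPKM in dM, against 60.6, 70.5 and 49.0 FPKM in wM (-4.42, SE 0.28). PII1, a partner of SS4, and the glucan-binding PTST3 fell by 2.54 and 1.83 on the log2 scale. The smallest falls were of SS5 at -0.93 and PTST2 at -0.60. In each of SS4, MFP1, PII1, PTST3 and SS5 the first dM library was the highest of the 3 and still lay below every wM library. All 3 dM libraries lay above all wM libraries for 40.3% of the genes tested and below them for 36.4%.

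Of 16 starch synthesis genes tested, 6 rose and 5 fell, with a median of -0.03 (0.27 length-adjusted, with 8 higher and 5 lower). The counts of 6 and 5 are close to the shares over all genes, 36.6% higher and 32.5% lower. GBSS1, the granule-bound synthase that makes amylose, had 130, 137 and 125 FPKM in dM, against 4.31, 4.63 and 4.83 FPKM in wM, a log2 fold change of 4.56 (SE 0.14, limma adjusted p = 2.6e-17). Subunits of ADP-glucose pyrophosphorylase, the enzyme that commits carbon to starch, went in opposite directions. The large subunit APL3 had 292, 240 and 231 FPKM in dM, against 65.7, 63.4 and 62.5 FPKM in wM, while the large subunit APL1 had 33.5, 35.1 and 27.1 FPKM in dM, against 86.9, 90.2 and 93.5 FPKM in wM. The small subunit APS1 rose by 1.03 and the large subunit APL4 by 2.22 on the log2 scale. Among the soluble synthases SS3 and SS1 fell by 1.67 and 0.64, and SS2 had a log2 fold change of 0.63. The branching enzymes SBE2.1 and SBE2.2 were not called, at 0.14 (SE 0.17) and 0.08 (SE 0.16), and length-adjusted they were called higher, at 0.48 and 0.42.

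Starch degradation genes split as well, with 8 of 25 higher and 15 lower and a median of -0.54 (-0.13 length-adjusted, with 8 higher and 11 lower). The alpha-amylase AMY1 had 25.2, 25.2 and 28.7 FPKM in dM, against 3.37, 3.22 and 3.25 FPKM in wM (log2 fold change 2.67, SE 0.11). BAM1, a plastidial beta-amylase that releases maltose, had 145, 141 and 147 FPKM in dM, against 28.1, 27.8 and 29.4 FPKM in wM (2.3, SE 0.12). BAM3, the beta-amylase of leaf starch breakdown at night, went the other way, with 156, 125 and 150 FPKM in dM, against 547, 537 and 430 FPKM in wM (-1.80, SE 0.20). BAM6 had 1.23, 0.467 and 0.846 FPKM in dM, against 26.5, 30.7 and 23.3 FPKM in wM, and a gene on the opposite strand covers 27.9% of its span. The debranching enzyme ISA3 and the glucan phosphatase SEX4 rose by 1.11 and 1.06 on the log2 scale. The glucan water dikinase GWD1 and the phosphoglucan dikinase PWD, which phosphorylate starch, had log2 fold changes of -1.14 and -0.97, but -0.13 and -0.22 length-adjusted, where neither was called. The maltose transporter MEX1 had 33.1, 35.5 and 29.8 FPKM in dM, against 27.7, 26 and 32.0 FPKM in wM, and was not called except without the third wM library, at 0.28.

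**Figure D3:**
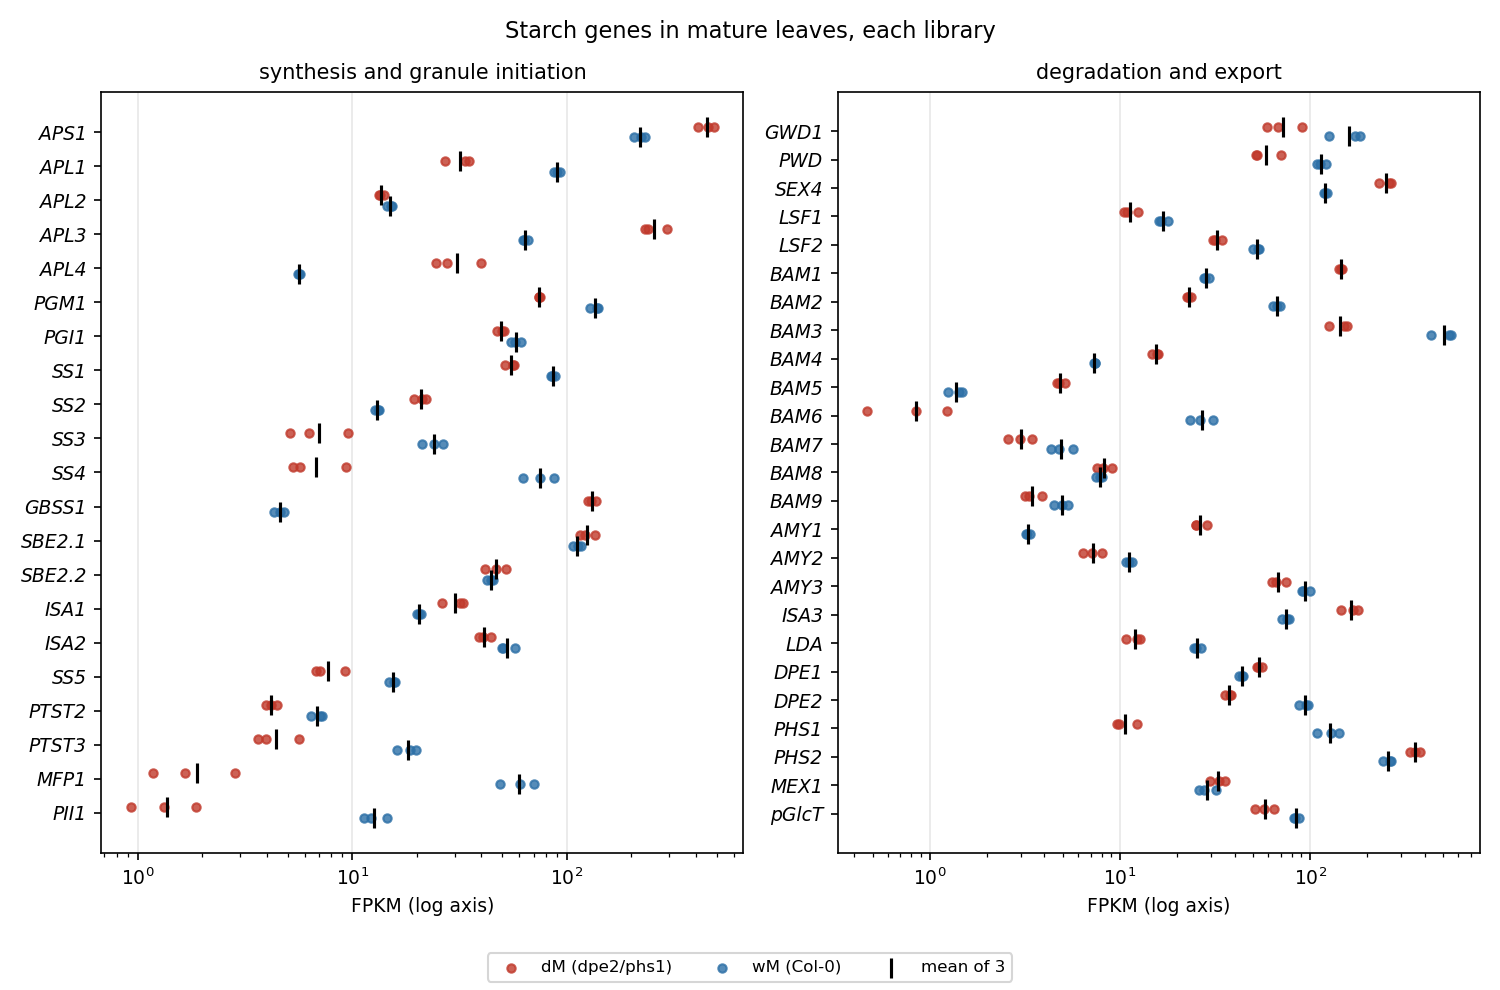
FPKM on a log axis of the starch synthesis and granule initiation genes (left) and of the starch degradation and export genes (right), with 1 point for each dM library (red, upper point of a pair) and each wM library (blue) and a black line at the mean of 3. GBSS1 stands at 125 to 137 FPKM in dM, against 4.31 to 4.83 FPKM in wM, and MFP1 at 1.18 to 2.85 FPKM in dM, against 49.0 to 70.5 FPKM in wM.

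Of 29 sugar carriers 18 rose, 13 of them by more than 2-fold, and 6 fell, with a median log2 fold change of 0.80. GPT2, which carries glucose 6-phosphate across the plastid envelope, had 339, 339 and 318 FPKM in dM, against 4.21, 3.70 and 4.32 FPKM in wM, a log2 fold change of 6.04 (SE 0.12, limma adjusted p = 1.0e-20). The hexose carrier STP13 had 163, 166 and 193 FPKM in dM, against 13.5, 13.5 and 15.2 FPKM in wM. SWEET15, a sucrose exporter also known as SAG29, had 81.4, 90.5 and 62.8 FPKM in dM, against 6.64, 5.69 and 6.11 FPKM in wM. The vacuolar carriers TMT2 and ESL1 rose by 1.85 and 2.92 on the log2 scale. Other plastid carriers fell, PPT2 for phosphoenolpyruvate by 3.20, XPT for pentose phosphates by 1.95 and the triose phosphate carrier TPT by 0.66. SUC2, which loads sucrose into the phloem, was not called at 0.10 (SE 0.13). The 250 bases before the start of GPT2 (RefSeq TAIR10.1, chr1:22824164-22824413, plus strand) are shown for its rise and contain the evening element AAAATATCT, in capitals, 82 to 74 bases before the start, a motif in the promoters of 3.95% of genes more than 2-fold higher, 2.28% of genes more than 2-fold lower and 2.52% of all 19297 genes with a promoter.
GPT2: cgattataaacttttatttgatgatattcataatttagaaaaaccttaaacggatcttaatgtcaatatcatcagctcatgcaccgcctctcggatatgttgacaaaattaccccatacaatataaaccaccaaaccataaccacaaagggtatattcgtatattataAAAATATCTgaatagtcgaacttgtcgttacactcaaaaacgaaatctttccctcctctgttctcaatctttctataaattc

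Of 16 sucrose genes 6 rose and 3 fell, with a median of 0.12, and length-adjusted 10 were higher and 3 lower, with a median of 0.43. The sucrose phosphate synthase SPS4F had 14.5, 9.78 and 9.77 FPKM in dM, against 97.5, 107 and 72.9 FPKM in wM (log2 fold change -2.92, SE 0.23), while the sucrose synthase SUS3 rose by 2.36. Length-adjusted, SPS4F was at -2.17. Of 23 genes of trehalose phosphate and of SnRK1, the kinase that signals low energy, 11 rose and 9 fell. The catalytic subunit KIN10 and the class II protein TPS10 rose by 1.25 and 2.77, and TPS1, which makes trehalose 6-phosphate, had a log2 fold change of -1.59 and a length-adjusted one of -0.68.

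Of 37 regulators and markers of leaf senescence, 28 rose, 23 of them by more than 2-fold, and 7 fell, and the median log2 fold change was 1.98, against 0.05 for all genes. SAG12, a cysteine protease used as a marker of leaf senescence, had 43.0, 45.8 and 40.4 FPKM in dM, and none of the wM libraries held a read of it, so that it was at least 1298-fold higher in dM against the floor of 3 reads. ORE1, a NAC factor that promotes senescence, had 33.3, 31.2 and 29.9 FPKM in dM, against 0.821, 0.438 and 1.19 FPKM in wM (4.18, SE 0.14). SAG13 had 219, 246 and 239 FPKM in dM, against 9.04, 8.19 and 8.40 FPKM in wM (4.62, SE 0.10). The WRKY factors WRKY45 and WRKY75 rose by 4.18 and 3.90, and the NAC factors ANAC059, ANAC046 and NAP by 3.24, 2.94 and 1.76. JUB1 and VNI2, NAC factors that delay senescence, rose too, by 1.49 and 1.64. Those that fell included WRKY53 and WRKY70, at -1.41 and -1.46, the chlorophyll b reductase NYC1, at -1.60, and SAG101, at -1.03. The summed FPKM of the list was 2449, 2578 and 2587 in dM, against 1000, 987 and 1044 in wM.

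All 16 proteases of the vacuole and of senescence that were tested were higher in dM, 10 of them by more than 2-fold, and the median was 1.22. GAMMA-VPE, a vacuolar processing enzyme, had 354, 353 and 366 FPKM in dM, against 60.8, 57.9 and 58.6 FPKM in wM (2.58, SE 0.09). RD19A, a cysteine protease, had 1312, 1361 and 1510 FPKM in dM, against 216, 207 and 226 FPKM in wM (2.68, SE 0.10). BETA-VPE rose by 4.18 and the cathepsin CATHB3 by 1.76 on the log2 scale. A further 3 proteases, RD19D, CEP2 and DELTA-VPE, did not pass the minimum level of a mean of 1 FPKM in any group. Among the groups of mature and young leaves, SAG12, ALPHA-VPE and CEP1 reached that level only in dM. Where no shoot group reached it either, such a gene could be counted only as higher in dM.

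Autophagy genes rose in 28 of 39 cases and fell in 4, with a median of 0.66, and rises of more than 2-fold numbered 13. The ATG8 family, small proteins that are joined to the autophagosome membrane, rose in all 9 members, between 0.66 for ATG8I and 2.23 for ATG8B, and the call of ATG8I was lost without the third dM library, at 0.44. ATG8E had 52.0, 59.3 and 44.3 FPKM in dM, against 12.1, 11.3 and 12.8 FPKM in wM. NBR1, a receptor that takes cargo to autophagosomes, had 358, 368 and 382 FPKM in dM, against 104, 107 and 102 FPKM in wM (1.81, SE 0.09). Those that fell included long genes. ATG2 had a log2 fold change of -1.73 and ATG11 of -1.01, and the length-adjusted values were -0.48 and 0.10, so that the direction of ATG11 was not the same. Length-adjusted, 32 of the list were higher and 3 lower. Proteasome subunits rose in 33 of 47 cases, 4 by more than 2-fold, and fell in 3, with a median of 0.46 (length-adjusted 28 higher and 5 lower, 0.31). RPN3A, of the regulatory lid, had 57.9, 63.8 and 67.5 FPKM in dM, against 29.0, 28.1 and 30.3 FPKM in wM.

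Most genes that take chlorophyll apart rose and most genes that make it fell. Of 14 breakdown genes 9 rose, 7 by more than 2-fold, and 3 fell, with a median of 1.03. Those that fell were NYC1, at -1.60, HCAR, at -0.32, and SGRL, at -1.09. PAO, the oxygenase that opens the porphyrin ring, had 156, 157 and 130 FPKM in dM, against 49.3, 46.8 and 51.6 FPKM in wM (1.56, SE 0.14), and the pheophytinase PPH rose by 1.52. The magnesium dechelatase SGR1 rose by 1.09 and its homolog SGR2, described as an inhibitor of breakdown, by 3.57. CYP89A9, which acts late on the catabolites, had 103, 109 and 93.7 FPKM in dM, against 10.4, 7.75 and 8.96 FPKM in wM. Of 25 synthesis genes 2 rose and 17 fell, with a median of -0.38. HEMA1, the enzyme at the entry to the pathway, had 12.6, 12.3 and 13.6 FPKM in dM, against 65.7, 70.7 and 64.0 FPKM in wM (-2.29, SE 0.14). The magnesium chelatase subunit CHLH had a log2 fold change of -1.74 and a length-adjusted one of -0.78. Chlorophyllide a oxygenase CAO was one of the pair that rose, by 0.57.

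Carbon fixation genes were lower in dM almost throughout. Of 22 Calvin cycle genes 19 fell, 11 by more than 2-fold, and 2 rose, with a median of -0.99, and their summed FPKM was 20498, 20941 and 22198 in dM, against 47615, 47869 and 50207 in wM. The 4 Rubisco small subunit genes are near-identical copies, between which reads may be divided wrongly, and were therefore added up. Their sum was 11182 ± 42.9 FPKM in dM and 28357 ± 1199 FPKM in wM (SD, n = 3 each), a ratio of 0.394. Singly, RBCS2B fell by 2.77, RBCS1B by 2.31 and RBCS1A by 0.87, and the call of RBCS1A was lost with quantile normalization. SBPASE, a phosphatase of the regeneration phase, had 211, 204 and 227 FPKM in dM, against 821, 811 and 883 FPKM in wM. The transketolase TKL2 was one of the pair that rose, with 14.5, 13.9 and 13.3 FPKM in dM, against 4.81, 4.47 and 4.38 FPKM in wM.

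Of 51 photosystem and antenna genes 34 fell, 16 by more than 2-fold, and 8 rose, with a median of -0.62. PSAF, a subunit of photosystem I, had 324, 300 and 356 FPKM in dM, against 1874, 1949 and 1909 FPKM in wM (-2.55, SE 0.10). LHCB4.3, an antenna protein of photosystem II, had 18.0, 19.5 and 27.9 FPKM in dM, against 234, 225 and 237 FPKM in wM. The LHCB1 antenna genes, also near-identical copies, moved apart, with both genes named LHCB1.1 higher in dM, AT1G29910 at 1.62 and AT1G29920 at 2.76, and LHCB1.3 lower at -0.46, a call that was lost with no filter on low values and with quantile normalization. Their sum over 5 genes was 11786 ± 1771 FPKM in dM and 12582 ± 389 FPKM in wM (SD, n = 3 each), a difference smaller than the SD in dM. Plastid ribosomal proteins fell in 21 of 28 cases, 4 by more than 2-fold, with a median of -0.61. Cytosolic ribosomal proteins, which are short genes, were called higher in 74 of 200 cases, close to the share of 36.6% over all genes. Of these, 7 rose by more than 2-fold, below the share of 14.4% over all genes. A further 19 were called lower, below the share of 32.5%, and the median was 0.24. Length-adjusted, the median of the cytosolic ones was -0.08, with 33 higher and 66 lower.

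**Figure D4:**
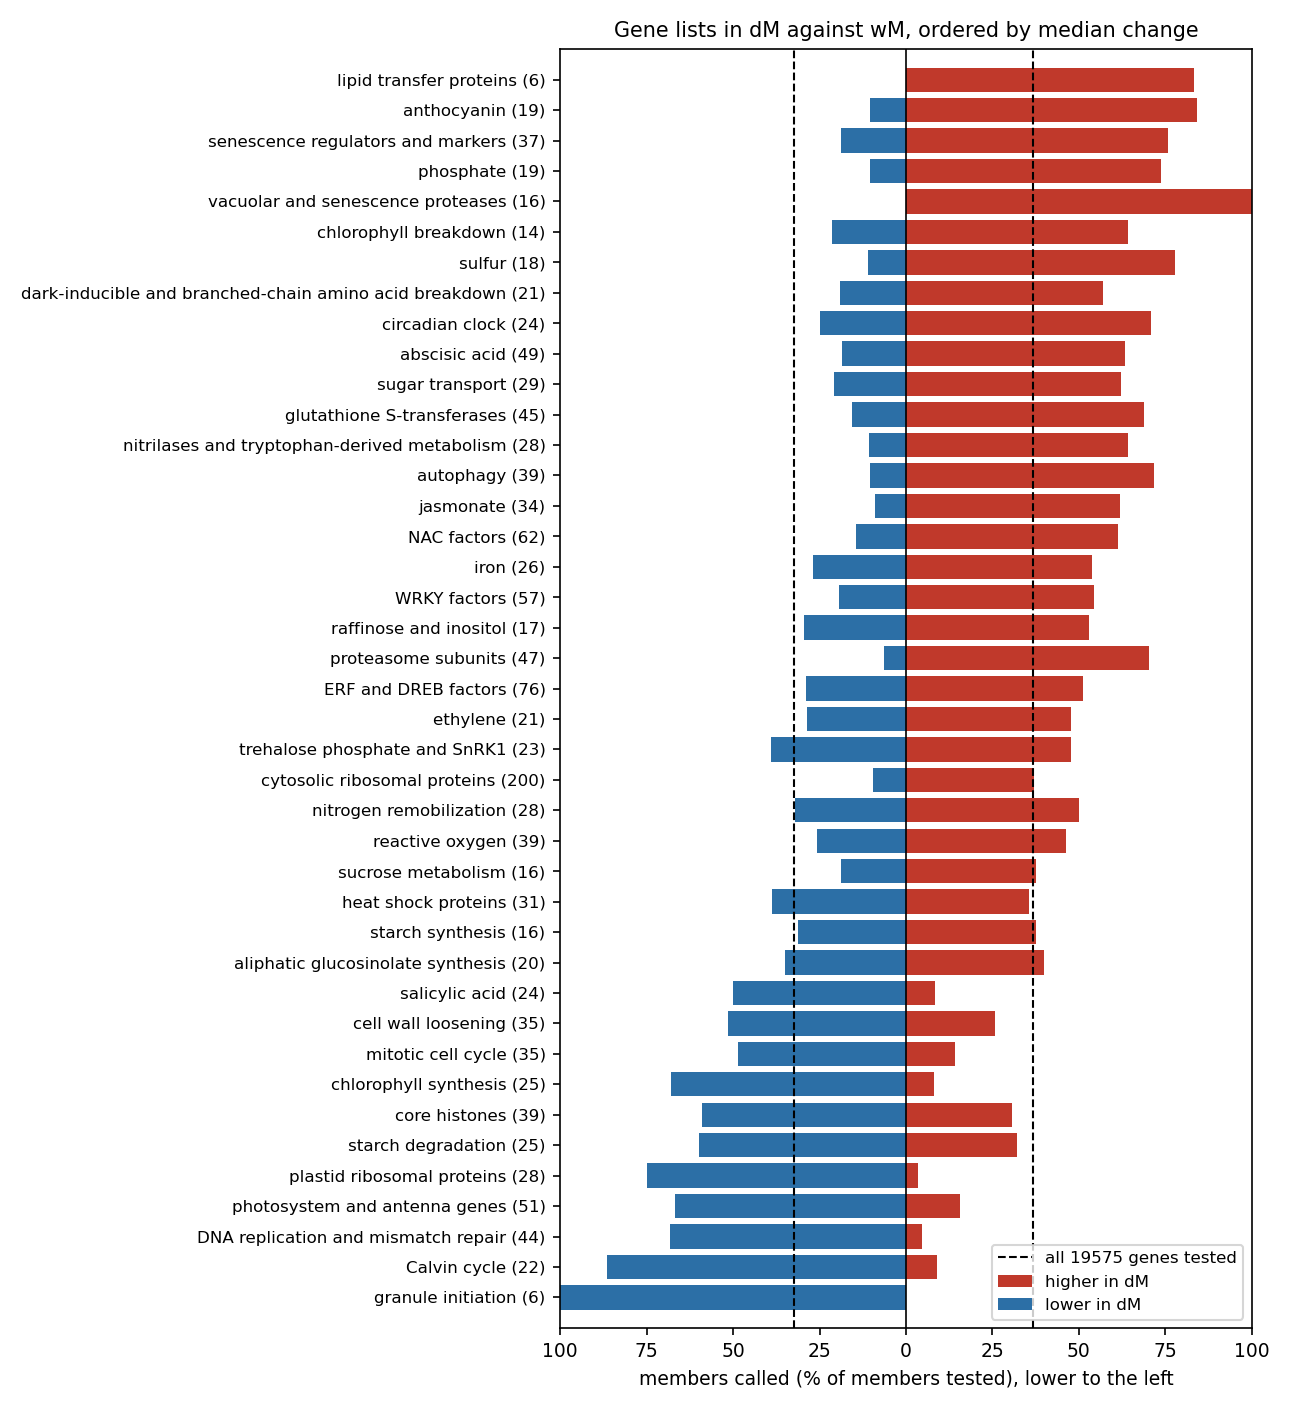
Share of the tested members of each gene list (number in brackets) called higher in dM (red, to the right) or lower in dM (blue, to the left) at an adjusted p under 0.05, in percent, ordered by the median log2 fold change of dM over wM. Dashed lines mark the shares over all 19575 genes, 36.6% higher and 32.5% lower. Granule initiation, the Calvin cycle and DNA replication lie at the lower end, and lipid transfer proteins, anthocyanin and senescence at the upper end.

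Of 19 anthocyanin genes tested, 16 rose, 13 by more than 2-fold, and 2 fell, with a median of 3.43, and their summed FPKM was 2758, 2902 and 2616 in dM, against 135, 133 and 145 in wM. The late enzymes rose furthest. DFR, dihydroflavonol reductase, had 377, 349 and 305 FPKM in dM, against 3.24, 3.34 and 3.40 FPKM in wM (6.31, SE 0.14). TT19, a glutathione S-transferase needed to bring anthocyanin into the vacuole, had 598, 671 and 576 FPKM in dM, against 3.57, 5.06 and 5.49 FPKM in wM (6.77, SE 0.14). UF3GT and 5MAT, which decorate the pigment with sugar and malonyl groups, rose by 6.29 and 6.36, and LDOX by 5.77. The early enzymes CHS and CHI rose by 3.84 and 2.59. Of the regulators, the MYB activators PAP1 and PAP2 (AT1G66390) rose by 3.43 and 2.86, their bHLH partner TT8 by 3.64 and the repressor MYBL2 by 4.51. FLS1 and MYB111, of the flavonol branch, were the members that fell, at -0.38 and -0.50, and the call of FLS1 was lost without replicate 1 or replicate 3 of either group, at -0.35 to -0.33. F3H was listed at or near 0 in all 6 libraries. An annotated gene on the opposite strand covers 94.5% of its span, and the sources used here do not give whether the counting used strand. The promoter of DFR (RefSeq TAIR10.1, chr5:17166033-17166282, minus strand) is shown as that of a strongly raised late enzyme. Its capitals mark a W-box 135 to 130 bases and a G-box 14 to 9 bases before the start, and a G-box was present in 5 of the 19 anthocyanin promoters and in 7.38% of all promoters.
DFR: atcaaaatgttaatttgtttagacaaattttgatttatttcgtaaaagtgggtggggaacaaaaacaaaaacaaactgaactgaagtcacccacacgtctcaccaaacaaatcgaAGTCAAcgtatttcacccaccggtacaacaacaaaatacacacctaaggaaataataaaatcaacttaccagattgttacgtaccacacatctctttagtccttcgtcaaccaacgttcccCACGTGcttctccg

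Genes for moving nutrients out of leaves rose in part. Of 28 nitrogen genes 14 rose, 8 by more than 2-fold, and 9 fell. The nitrate carrier NRT1.7, which takes nitrate out of old leaves through the phloem, had 458, 475 and 473 FPKM in dM, against 52.5, 51.6 and 53.8 FPKM in wM (3.13, SE 0.10). The cytosolic glutamine synthetase GLN1;3 had 132, 141 and 134 FPKM in dM, against 15.9, 15.1 and 14.6 FPKM in wM. The plastid enzymes of the same step went down, GLN2 by 1.61 and the glutamate synthase GLU1 by 3.11 (-2.0 length-adjusted). Of 21 dark-inducible genes and genes of branched-chain amino acid breakdown 12 rose and 4 fell, with a median of 0.83. DIN6, an asparagine synthetase, had 14.9, 13.9 and 13.0 FPKM in dM, against 0.127, 0.0695 and 0.119 FPKM in wM (3.75, SE 0.17). ProDH1, proline dehydrogenase, had 59.3, 61.2 and 56.4 FPKM in dM, against 1.53, 2.06 and 1.93 FPKM in wM (4.40, SE 0.14).

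Sulfur, phosphate and iron genes changed as well. Of 18 sulfur genes 14 rose, 9 by more than 2-fold, and 2 fell, with a median of 0.97. LSU1, a gene induced by low sulfur, had 118, 125 and 225 FPKM in dM, against 1.27, 1.66 and 2.24 FPKM in wM, with the third dM library the highest. SDI1, another low-sulfur gene, had 75.9, 67.2 and 65.5 FPKM in dM, against 1.42, 0.991 and 1.54 FPKM in wM, and the sulfate carrier SULTR1;2 rose by 3.02. Of 19 phosphate genes 14 rose, 10 by more than 2-fold, with a median of 1.33. The phosphate carrier PHT1;4 rose by 3.31 and the acid phosphatase PAP17 by 2.54. Of 26 iron genes 14 rose and 7 fell, with a median of 0.58. bHLH38, a transcription factor of iron deficiency, had 134, 128 and 95.9 FPKM in dM, against 2.85, 1.88 and 2.02 FPKM in wM (5.21, SE 0.15), and bHLH39, bHLH100 and bHLH101 rose by 4.21, 4.07 and 3.52. The iron stores FER3 and FER4 fell by 1.5 and 2.70.

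Hormone genes differed by hormone. Of 49 abscisic acid genes 31 rose, 22 by more than 2-fold, and 9 fell, with a median of 0.81. RAB18, a dehydrin, had 745, 768 and 1179 FPKM in dM, against 93.2, 79.2 and 84.2 FPKM in wM (3.35, SE 0.15). RD26, a NAC factor, and the phosphatase HAI2 rose by 3.02 and 2.78. The enzymes that inactivate the hormone were divided, with CYP707A2 at 3.34 and CYP707A3 at -2.81. The RAB18 promoter (RefSeq TAIR10.1, chr5:26519448-26519697, minus strand) is shown because an ABRE, in capitals 111 to 105 bases before the start, was present in 13 of the 49 promoters of this list (26.5%) and in 7.34% of all promoters. The other capitals mark an evening element 61 to 53 bases and site II elements 234 to 229 and 222 to 217 bases before the start.
RAB18: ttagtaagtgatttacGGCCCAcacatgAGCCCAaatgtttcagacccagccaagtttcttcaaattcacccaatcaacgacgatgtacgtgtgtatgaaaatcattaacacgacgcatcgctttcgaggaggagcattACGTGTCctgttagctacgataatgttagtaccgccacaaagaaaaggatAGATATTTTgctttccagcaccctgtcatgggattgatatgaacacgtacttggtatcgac

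Of 34 jasmonate genes 21 rose, 15 by more than 2-fold, and 3 fell, with a median of 0.66. The storage protein VSP2 had 197, 204 and 171 FPKM in dM, against 15.8, 14.8 and 14.6 FPKM in wM, and JOX3, which inactivates jasmonic acid by hydroxylation, rose by 4.44. MYC2, the main transcription factor of the pathway, was listed at 0 in all 6 libraries, and an opposite gene covers 98.5% of it. Salicylic acid genes mostly fell or were not called, with 2 of 24 higher, 12 lower and a median of -0.29 (length-adjusted 4 higher and 15 lower, -0.55). The members that rose were PR1, described above, and FMO1, an oxygenase of the N-hydroxypipecolic acid pathway, at 2.42. EDS1, a defence regulator, had 2.94, 2.22 and 2.21 FPKM in dM, against 29.1, 31.4 and 28.0 FPKM in wM (-3.15, SE 0.17), and the synthesis gene ICS1 was not called at 0.30 (SE 0.15), but was called at 0.33 length-adjusted. Of 21 ethylene genes 10 rose and 6 fell, with the synthases ACS2 and ACS6 at 2.94 and -1.49. Of 28 nitrilase and tryptophan-derived genes 18 rose, 12 by more than 2-fold, and 3 fell, with a median of 0.74. Beside NIT2, the camalexin enzymes PAD3 and CYP71A12 rose by 3.66 and 3.93 and NIT4 by 3.63, whereas CYP79B3 fell by 1.32. The 20 genes of aliphatic glucosinolates gave 8 higher and 7 lower, close to the shares over all genes, and 5 higher and 10 lower length-adjusted.

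Families of stress-related and regulatory proteins were examined whole. Of 45 glutathione S-transferases 31 rose and 7 fell (median 0.80), of 57 WRKY factors 31 rose and 11 fell (0.52), of 62 NAC factors 38 rose and 9 fell (0.60), and of 76 ERF and DREB factors 39 rose and 22 fell (0.40). NAC055 had 28.0, 31.6 and 27.2 FPKM in dM, against 0.0698, 0.102 and 0.00 FPKM in wM (4.82, SE 0.11). WRKY46 had 3.65, 2.24 and 1.76 FPKM in dM, against 30.8, 30.5 and 27.0 FPKM in wM (-3.14, SE 0.17). Heat shock proteins gave 11 of 31 higher and 12 lower, close to the shares of 36.6% and 32.5% over all genes. Of 39 genes of reactive oxygen 18 rose and 10 fell. AOX1D, a mitochondrial alternative oxidase, had 45, 50.1 and 42.7 FPKM in dM, against 0.752, 0.548 and 0.654 FPKM in wM. The iron superoxide dismutase FSD1 fell by 2.78, whereas FSD2 and FSD3, of the same family, rose by 0.83 and 0.89. Of 6 lipid transfer proteins 5 rose, all by more than 2-fold, and LTP2 had 306, 328 and 356 FPKM in dM, against 4.51, 5.54 and 5.05 FPKM in wM. Of 17 raffinose and inositol genes 9 rose and 5 fell, with MIOX2, an inositol oxygenase, at 4.37 and MIPS1, which makes inositol phosphate, at -1.59.

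Of 24 clock genes 17 rose, 11 by more than 2-fold, and 6 fell, with a median of 0.83. PRR5, a repressor in the clock, had 66.8, 60 and 60.2 FPKM in dM, against 3.04, 3.52 and 3.19 FPKM in wM (3.90, SE 0.19). GI and ELF4, expressed later in the day, rose by 2.11 and 2.05, the morning gene CCA1 by 1.83, and PRR3 fell by 2.4. The leaves of each group were taken at a single time of day, so that a change of level and a shift of phase cannot be told apart.

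Genes for copying DNA were lower in dM. Of 44 genes of DNA replication and mismatch repair 30 fell, 18 by more than 2-fold, and 2 rose, with a median of -0.87 (-0.50 length-adjusted, with 27 lower and 2 higher). MCM3 and MCM6, subunits of the replicative helicase, had 2.22, 1.2 and 1.35 FPKM and 0.778, 0.268 and 0.447 FPKM in dM, against 10.8, 11.4 and 10.4 FPKM and 6.66, 6.93 and 5.77 FPKM in wM. Their log2 fold changes were -2.22 (SE 0.22) for MCM3 and -2.33 (SE 0.21) for MCM6. RPA70B, which binds single-stranded DNA, fell by 2.56, and ORC4 and RFC2 were the members that rose, at 0.69 and 0.52, the call of RFC2 being lost when length-adjusted. Both MCM promoters (RefSeq TAIR10.1, minus strand, MCM3 at chr5:18773707-18773956 and MCM6 at chr5:18010668-18010917) are shown because an E2F site was present in 10 of the 44 promoters of this list (22.7%) and in 0.938% of all promoters. Capitals mark the E2F site 170 to 163 bases before the start of MCM3 and 46 to 39 bases before that of MCM6, and site II elements between 130 and 71 bases before either start.
MCM3: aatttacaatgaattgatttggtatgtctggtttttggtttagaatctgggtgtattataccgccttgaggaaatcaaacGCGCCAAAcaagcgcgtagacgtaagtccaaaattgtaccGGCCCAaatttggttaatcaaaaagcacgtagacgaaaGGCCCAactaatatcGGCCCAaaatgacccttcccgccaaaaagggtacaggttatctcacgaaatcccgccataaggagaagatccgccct
MCM6: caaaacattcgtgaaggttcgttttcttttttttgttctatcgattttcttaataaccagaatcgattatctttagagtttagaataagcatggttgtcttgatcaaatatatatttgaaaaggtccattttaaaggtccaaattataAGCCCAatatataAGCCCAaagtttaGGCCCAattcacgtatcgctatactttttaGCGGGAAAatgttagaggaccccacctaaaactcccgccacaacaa

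Of 35 mitotic genes 17 fell and 5 rose, with CYCD1;1 at -1.76 and the D-type cyclins CYCD2;1 and CYCD3;3 at 1.55 and 1.58, and of 39 core histone genes 23 fell and 12 rose (length-adjusted 23 lower and 7 higher). Of 35 cell wall loosening genes 18 fell, 12 by more than 2-fold, and 9 rose. XTH6, which remodels xyloglucan, had 0.700, 1.36 and 0.845 FPKM in dM, against 26.4, 22.7 and 25.9 FPKM in wM (-3.74, SE 0.13), and the expansin EXPA8 fell by 3.26.

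Markers of cell types also moved with genotype. The summed FPKM of 5 mesophyll markers, genes of photosynthesis, was 11581 to 12093 in dM and 22043 to 23676 in wM. Of these 5, RBCS1A, RCA and CA1 were called lower in dM, at -0.87, -1.53 and -3.95, and LHCB2.1 and the LHCB1.1 gene AT1G29920 were called higher, at 1.5 and 2.76. RBCS1A and AT1G29920 belong to the near-identical copies described above, between which reads may be divided wrongly. The sum of 5 guard cell markers was 8.72 to 10.1 in dM and 24.8 to 29.8 in wM. For 5 markers of dividing cells the sum was 19.9 to 31.7 in dM and 51.6 to 59.8 in wM. Most of it was the histone gene HIS4, with means of 22.9 in dM and 47.4 in wM. CYCB1;1, KNOLLE and AUR1 were also called lower, and CDKB2;1 was not called, at -0.46. For 5 phloem markers the sum was 139 to 148 in dM and 115 to 121 in wM. SULTR2;1, also in the sulfur list, rose most, with means of 44.7 in dM and 27.9 in wM. APL and NAKR1 were called higher, at 0.37 and 0.27, and SUC2 and SEOB were not called, at 0.10 and -0.35. For 4 epidermal markers the sum was 295 to 383 in dM and 210 to 249 in wM. CER6 and PDF1 were called higher in dM, at 0.92 and 2.45, ATML1 lower, at -1.06, and FDH was not called, at -0.13. The meristem gene STM had 1.87, 2.41 and 1.73 FPKM and KNAT1 1.68, 1.36 and 1.31 FPKM in dM. No read of either was recovered in wM, so that they were at least 78.5-fold and 67.8-fold higher in dM. Both were also called higher in young leaves. STM had means of 1.53 FPKM in dY and 0.246 FPKM in wY, and KNAT1 of 1.76 and 0.157 FPKM. The difference between the changes in mature and young leaves was not called for either gene. The stem cell gene WUS was at 0 in all 6 libraries. The part of these markers in the results above was not tested.

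The genotype effect in mature leaves was then set against that in young leaves of the same age and period, by testing the difference of the log2 fold changes, (dM over wM) minus (dY over wY). This difference was called for 48.8% of genes, 20.8% higher and 27.9% lower in mature leaves. In the dY libraries the long genes lay above the short ones, by 0.11, 0.73 and 0.51, unlike in dM. The differences and list medians set out below are not length-adjusted, and the part of the length trend in them was not tested. Of the 2820 genes more than 2-fold higher in dM, 2227 (79.0%) were also called higher in dY and 43 lower, against 34.6% higher and 19.1% lower over all genes. Of the 2718 genes more than 2-fold lower in dM, 1220 (44.9%) were called lower in dY and 203 (7.47%) higher.

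The difference was higher in mature leaves for 25 of 37 senescence genes and lower for 5, and the median log2 fold change of the list was 1.98 in mature and 0.50 in young leaves. For genes at low FPKM in young leaves, the log2(FPKM + 1) scale understates the effect there, which can enlarge the difference. ANAC059 had means of 1.93 FPKM in dY and 0.0265 FPKM in wY, against 19.8 in dM and 1.2 in wM, and a difference of 1.74. SAG12 rose by 5.46 in mature leaves and by 0.36 in young ones, a difference of 5.09 (SE 0.15). Its means in young leaves were 0.291 FPKM in dY and 0 FPKM in wY, so that no fold change could be measured there. For chlorophyll breakdown it was higher for 10 of 14 genes and lower for 3, with medians of 1.03 in mature and 0.05 in young leaves. PAO and PPH, which rose by 1.56 and 1.52 in mature leaves, had 0.03 and 0.07 in young ones, and the difference was called for both (limma adjusted p = 1.5e-06 and 4.0e-08). For anthocyanin the difference was higher in mature leaves for 13 of 19 genes and lower for 0, with medians of 3.43 in mature and 2.07 in young leaves. For sulfur it was higher for 13 of 18 and lower for 0.

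For all 6 granule initiation genes the difference was lower in mature leaves, with medians of -2.19 in mature and -0.19 in young leaves. In young leaves PTST2 was called higher, at 0.32, and the other 5 were not called, with SS4 at -0.16 and MFP1 at -0.54. For starch degradation, without length adjustment, the difference was lower in mature leaves for 12 of 25 genes and higher for 3, with medians of -0.54 in mature and 0.36 in young leaves. BAM3 and BAM6, which fell in mature leaves, were at 0.48 and 0.79 in young ones, and AMY1, which rose by 2.67 in mature leaves, was at -0.43 in young ones. GBSS1, GPT2 and BETA-VPE rose in both, and their differences of 0.40, 0.38 and -0.20 were not called. For iron genes the difference was lower in mature leaves for 15 of 26 and higher for 5, with medians of 0.58 in mature and 1.31 in young leaves. For abscisic acid it was lower for 24 of 49 and higher for 10. The clearest change of sign was in ERF018, an ethylene response factor, and in the nudix hydrolases NUDT21 and NUDT4. NUDT21 had 23.9, 21.2 and 20.5 FPKM in dM, against 132, 126 and 125 FPKM in wM, and its log2 fold change was -2.50 in mature and 2.34 in young leaves.

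**Figure D5:**
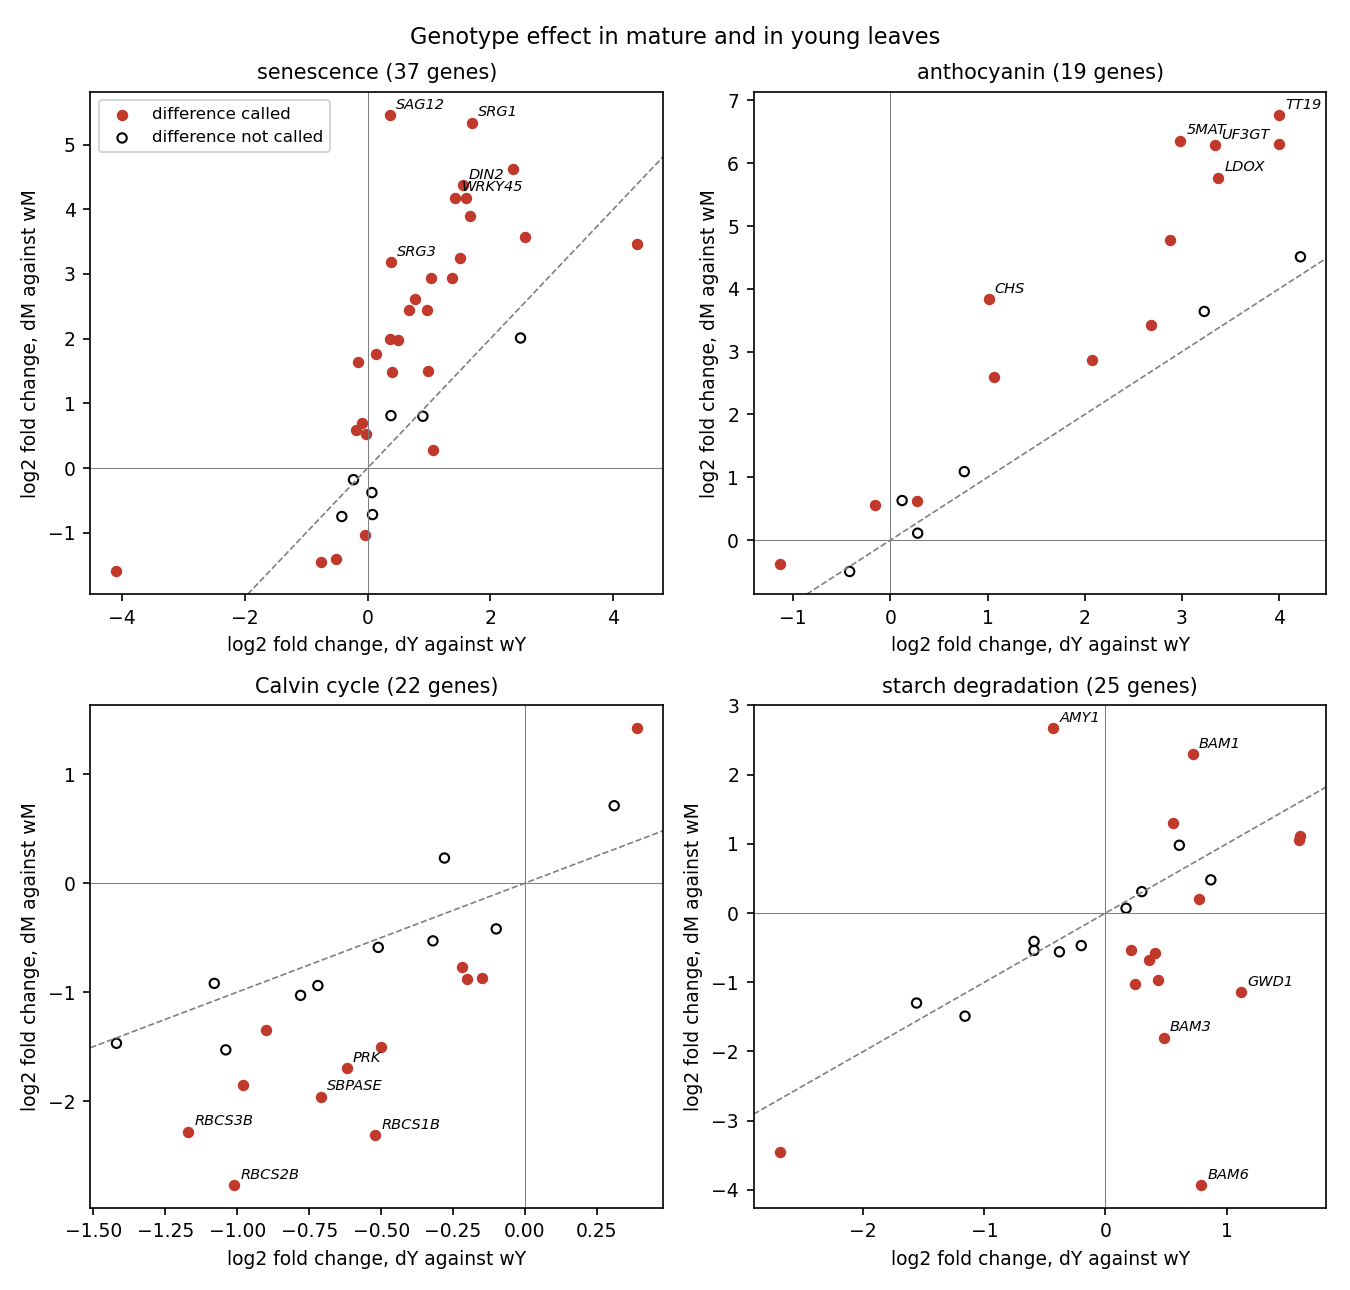
Log2 fold change of dM over wM (vertical axis) against that of dY over wY (horizontal axis) for the genes of 4 lists, with 1 point for each gene, filled where the difference between them was called and open where it was not. The dashed line marks equal effects. Most senescence and anthocyanin genes lie above it, as SAG12 with 5.46 in mature and 0.36 in young leaves, and most Calvin cycle genes below it. Fold changes of genes at low FPKM are understated, as for SAG12 in young leaves, with means of 0.291 FPKM in dY and 0 FPKM in wY.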

How the data were processed

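RNA was sequenced from mature leaves of dpe2/phs1 (dM) and Col-0 (wM), with 3 libraries in each group and 17504383 to 27859805 recovered reads a library. The authors deposited FPKM values per gene, and the submitters' processing notes name CASAVA, HISAT2, featureCounts and the TAIR10 genome. Versions and the strand setting of the counting are not given in the sources used here.

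The deposited FPKM values of all 24 libraries were fitted with limma 3.58.1 in R 4.3.3 on log2(FPKM + 1), with a trended prior variance and 1 mean for each of the 8 groups. Genes entered if their mean reached 1 FPKM in any group, which kept 19575 of 33044 genes. Adjusted p-values are Benjamini-Hochberg over all of these, and a gene was called at an adjusted p under 0.05. The second test was the mature minus young difference of the genotype effects.

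A count test was not used, because the values are FPKM. Read numbers were recovered from the steps of low FPKM values: 55.0% of the values above 0 were whole reads (within 0.001) with the listed gene length, and 100% with a fitted one. On simulated data for dM against wM over 18442 genes, 192 of 200 changed genes were recovered with 10 false calls. The simulated reads had the same dispersion for all genes, no gene length trend and no changed genes beyond these 200. The number of false calls therefore does not carry over to the real data. Of the deposited genes 32532 had the same start and end as in the RefSeq TAIR10.1 annotation. Tables and figures were made with Python 3.11.15, pandas 2.3.3, numpy 2.4.6 and matplotlib 3.10.9.

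The members and gene lists were chosen with earlier results of these data known. Named genes were DPE2 and PHS1, the list members with the largest called changes in each direction or needed to describe a list, the 12 largest rises and falls and the 8 largest gains and losses in FPKM among genes with a symbol whose groups did not overlap, and the 5 largest differences from young leaves in each direction. Further list members were named after their values were seen. Alternatives were other pseudocounts, filters and scalings, removal of the gene length trend (loess, span 0.3), the replicate number as a block, a fit without the other groups, voom weights on recovered reads, and each library left out in turn.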

Additional observations from a re-analysis of the deposited data

Results flagged for a closer look

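The genotype effect differed between mature and young leaves for the following genes, each by a limma test of the difference, (dM over wM) minus (dY over wY), on the log2 scale, with 3 libraries in each group. They are the 5 largest differences in each direction among genes with a symbol, of 9545 genes (48.8%) for which the difference was called.

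The effect was larger upward in mature leaves for SAG12, by 5.09, for the low-sulfur gene LSU1, by 4.50, for the nitrilase NIT2, by 4.35, for OSM34, by 3.93, and for DOX1, an alpha-dioxygenase, by 3.92. With limma-voom on recovered reads the difference of DOX1 turned to -0.67 (adjusted p = 0.5) and that of OSM34 was 2.31 and no longer called (adjusted p = 0.071). DOX1 had 72.0, 82.2 and 63.6 FPKM in dM, against 0.706, 0.358 and 0.534 FPKM in wM. In young leaves its log2 fold change was 1.67. NIT2 rose in both, by 8.69 in mature and 4.34 in young leaves. SAG12 and LSU1 had means of 0.291 and 2.23 FPKM in dY, against 0 and 0.264 FPKM in wY. At such levels the log2(FPKM + 1) scale understates the fold change in young leaves.

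The effect was lower in mature leaves for ERF018, by -5.05, for NUDT21, by -4.84, for CIP1, by -4.81, for NUDT4, by -4.73, and for BAM6, by -4.72. ERF018 had 11.7, 9.69 and 18.6 FPKM in dM, against 77.4, 82.5 and 82.7 FPKM in wM, and its log2 fold change was -2.56 in mature and 2.48 in young leaves. NUDT4 had 7.06, 8.6 and 7.74 FPKM in dM, against 49.4, 57.3 and 52.2 FPKM in wM, with -2.62 in mature and 2.11 in young leaves. CIP1 was at -5.01 in mature and -0.20 in young leaves.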

How the results depend on the processing

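The number of genes called in mature leaves lay between 11184 and 14400 over the alternatives, that past 2-fold between 4685 and 7492, and that for the mature against young difference between 7955 and 10525, each within 1.5 times of the value reported. Leaving out 1 library gave 12545 to 12944, 5406 to 5734 and 8502 to 9303. The share of the differences that were higher in mature leaves was 42.7% as reported, 52.6% with the gene length trend removed, 51.1% with quantile normalization and 52.3% when libraries were rescaled by the median of ratios. DPE2 lay between -1.57 and -0.69 and PHS1 between -3.61 and -2.93 over the alternatives.

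Of 3460 values of single genes under an alternative, 3439 kept their direction and side of the threshold, 13 lost the call and 6 gained it. The other 2 reversed: ATG11 was at 0.10 with the gene length trend removed (limma adjusted p = 0.34), and the mature minus young difference of DOX1 was -0.67 with limma-voom on recovered reads (adjusted p = 0.5). That of OSM34 lost its call with limma-voom, at 2.31. The cause was not tested for DOX1 and OSM34. List medians stayed within the spread between libraries in 606 of 697 cases and moved in 91. They took the other sign in 4 cases: starch synthesis was at 0.27 and cytosolic ribosomal proteins at -0.08 with the gene length trend removed, starch synthesis at 0.02 without replicate 3 of dM, and heat shock proteins at -0.43 with a filter of 5 FPKM, which leaves fewer genes.

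The replicate numbers did not pair the libraries: same-numbered dM and wM libraries correlated at -0.098, -0.108 and 0.003 in their deviations, and a replicate block gave 13478, 5538 and 9393 genes called. Every motif share was lower in a window of 100 bases, which lies inside that of 250 bases and so cannot give a higher share. The depth limits genes near 1 FPKM, and 3 libraries a group limit small changes.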
